A study of Mus musculus with 4 samples.

Results

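The microRNAs (miRNAs) miR-143 and miR-145 are made from neighbouring hairpins of a single primary transcript, and they are described here across 4 small RNA libraries of cultured mouse synovial fibroblasts. The members were all names in the tables that, without the arm mark, read miR-143 or miR-145. There were 3 of them, mmu-miR-143, mmu-miR-145 and mmu-miR-145* (written without mmu- from here on), among 590 miRNAs listed in any library, and no other arm of mir-143 was analysed here. All 3 were past the filter on low counts, which kept 442 miRNAs.

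Synovial fibroblasts are the connective tissue cells of the joint lining. WT libraries (2) came from wild-type littermates, and TghuTNF libraries (2) from mice that carry a human TNF transgene, which causes arthritis. Mice of both genotypes were 8 weeks old, on a mixed CBA/J and C57BL/6/J background, and cells from their hind joints were grown to passage 4. The labels describe the cultures as mostly CD90.2-positive with few Mac1-positive cells, and give neither the promoter of the transgene nor a pooling of animals. The 2 libraries of a genotype are biological replicates per the series design.

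A hairpin is cut into a duplex of 2 arms, of which one is usually loaded into Argonaute as the guide and the other, marked with a star, is mostly degraded. The cluster is best known from smooth muscle, pericytes and fibroblasts, where serum response factor and myocardin drive its transcription and TGF-beta raises it. miR-145 represses Klf4, Klf5 and Oct4, factors that keep cells undifferentiated, and miR-143 represses Elk1. The tumour suppressor p53 favours processing of both hairpins.

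In the GRCm38 assembly (GENCODE annotation) both hairpins lie on the minus strand of chromosome 18. Mir143 spans 61649196 to 61649258, and Mir145a, the hairpin of miR-145 and miR-145*, spans 61647825 to 61647894, so their starts are 1371 bases apart. Neither overlaps another annotated gene. The long noncoding RNA gene Carmn ends 366 bases upstream of Mir143 on the same strand in that annotation. Mir145b, a hairpin with a similar name, lies 7372940 bases away and is not part of the cluster.

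The libraries held 16680860 and 26542371 matches (WT) and 27362819 and 22959408 (TghuTNF), where a match is a read assigned to a mature miRNA with at most 2 mismatches. TghuTNF replicate 2 stood apart in its mismatches: 11.7% of its matches had 2 mismatches, against 8.21% to 8.73% in the others. Levels are given in CPM, counts per 1000000 matches scaled with TMM, and a change was called at an adjusted p under 0.05 (edgeR quasi-likelihood test over all 442 miRNAs). In these cultures fewer cells of a type and less RNA per cell cannot be told apart.

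None of the 3 members was called between genotypes. By edgeR 0 of 3 passed, against 13.3% of all tested miRNAs, and 1 of 3, miR-145, had an unadjusted p under 0.05, as did 29% of all. DESeq2 and limma-voom also called 0 of 3. The cluster was thus represented mainly by a very abundant miR-143 whose levels overlapped between WT and TghuTNF. miR-145 was far less abundant than miR-143 and was high in a single TghuTNF library.

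The WT libraries held miR-143 at 113551 and 106646 CPM, the TghuTNF libraries at 97644 and 107057 CPM. The genotypes overlapped, since TghuTNF replicate 2 lay between the 2 WT libraries. WT averaged 110099 ± 4883 CPM and TghuTNF 102351 ± 6657 (SD, n = 2). The log2 fold change was -0.11 ± 0.14 (SE; edgeR adjusted p = 0.67). The 95% interval of the log2 fold change ran from -0.42 to 0.21. Only 67 of the 442 miRNAs, miR-143 included, had a log2 fold change of this size or smaller, and the median over all 442 was 0.0056.

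The share of matches that went to miR-143 was 11.2% and 10.9% for WT, and 9.85% and 10.5% for TghuTNF. At these depths the exact 95% binomial interval was narrow (11.17% to 11.20% in WT replicate 1, counting error only), so the spread between replicates sets the precision. It ranked 3 in abundance in every library by all matches, and by perfect matches alone 3 in both WT and 4 in both TghuTNF libraries. Next above it by mean level was let-7c (WT 115525 ± 7497 and TghuTNF 121614 ± 829.9 CPM), and next below was let-7b (77088 ± 5182 and 76108 ± 3129 CPM). In WT the means of let-7c and miR-143 differed by less than the SD of let-7c, while let-7b was below both in every library. These members of the let-7 family restrain growth and stemness genes.

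For miR-145 the WT libraries had 83.3 and 78.3 CPM, the TghuTNF libraries 82.6 and 190 CPM. TghuTNF replicate 1 lay between the WT libraries and TghuTNF replicate 2 was 2.30-fold above it. The read counts behind these levels were 1368, 2133, 2279 and 4282, so the gap between the TghuTNF libraries was far larger than counting error (0.00799% to 0.00868% of matches in replicate 1 and 0.0181% to 0.0192% in replicate 2, exact 95% intervals). WT averaged 80.8 ± 3.47 CPM and TghuTNF 136 ± 76.1 (SD, n = 2). The log2 fold change was 0.75 ± 0.33 (SE; 95% interval 0.021 to 1.49; edgeR adjusted p = 0.16).

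The difference in miR-145 came from TghuTNF replicate 2. Without that library the log2 fold change was 0.0049 (edgeR adjusted p = 0.99), and without TghuTNF replicate 1 it was 1.16 (edgeR adjusted p = 2.9e-05), fits that each leave 1 library in the genotype. Among the 135 miRNAs with a mean of at least 100 CPM, miR-145 had the third largest gap between the TghuTNF libraries, 1.20 on the log2 scale against a median of 0.20. Between the WT libraries its gap was 0.087, rank 107 of 135. TghuTNF replicate 2 is also the library with more 2-mismatch matches, and the level of miR-145 by perfect matches alone is given with the mismatch classes.

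miR-145* is the other arm of the same hairpin. Its WT libraries had 399.98 and 409 CPM and its TghuTNF libraries 368 and 304 CPM. Both TghuTNF libraries were below both WT libraries, as for 29.9% of all tested miRNAs. The means were 404 ± 6.23 and 336 ± 44.9 CPM (SD, n = 2), with a log2 fold change of -0.27 ± 0.19 (SE; 95% interval -0.69 to 0.15; edgeR adjusted p = 0.37). In TghuTNF replicate 2, the library where miR-145 was highest, miR-145* was lowest by all matches. By perfect matches alone miR-145* was not lowest there, as given with the mismatch classes.

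**Figure D1:**
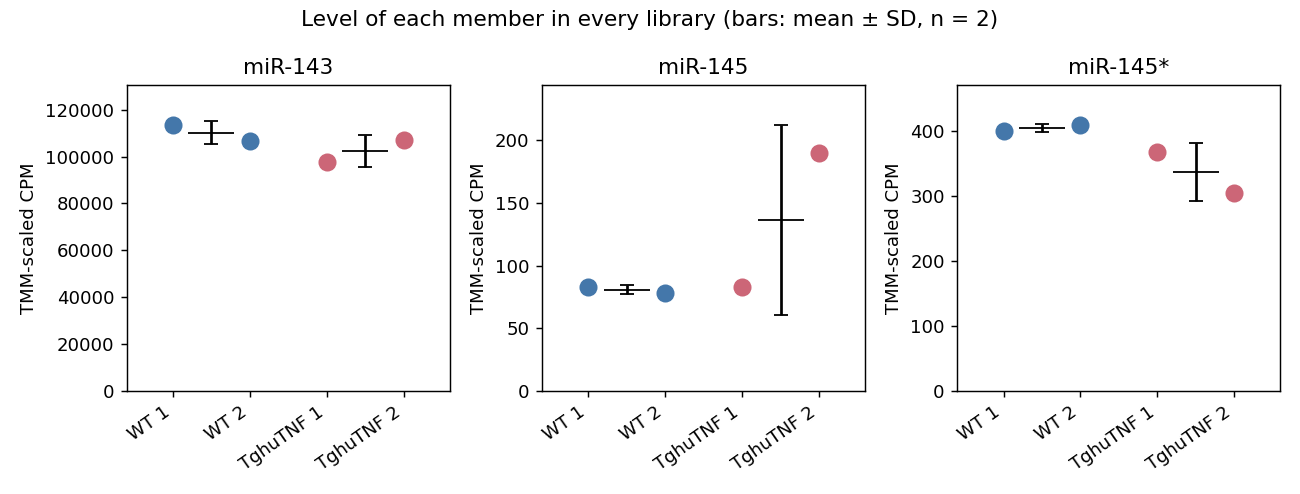
TMM-scaled CPM (y axis, from 0) of miR-143, miR-145 and miR-145* in each of the 4 libraries (x axis; blue WT, red TghuTNF), with the mean and SD of each genotype (n = 2) as black bars. miR-143 overlaps between genotypes, miR-145 is at 78.3 to 83.3 CPM in 3 libraries and at 190 CPM in TghuTNF replicate 2, and miR-145* is at 399.98 and 409 CPM in WT against 368 and 304 CPM in TghuTNF.

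**Figure D2:**
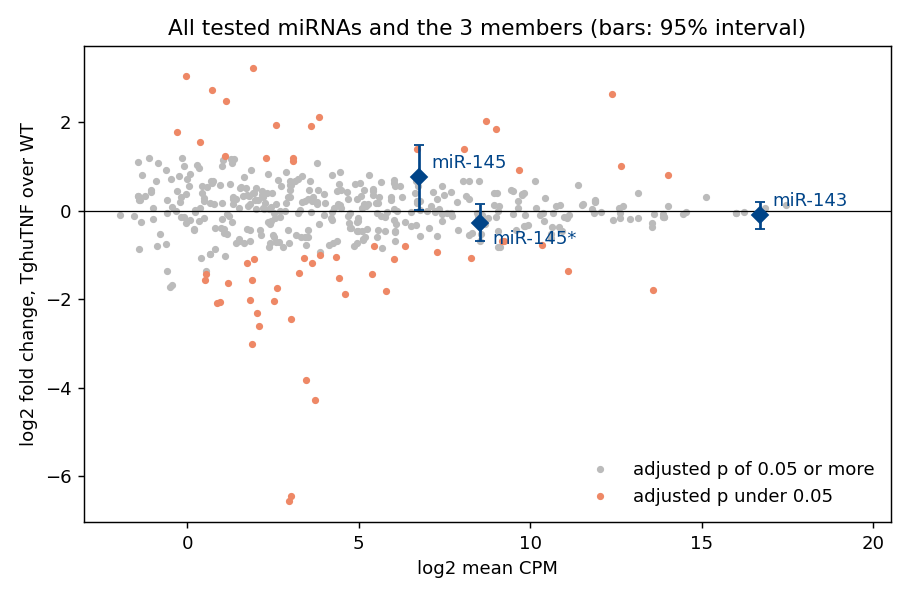
Log2 fold change of TghuTNF over WT (y axis) against log2 mean CPM (x axis) for the 442 tested miRNAs, with the 59 called ones in orange and the 3 members as diamonds with 95% intervals. miR-143 lies near 0 at the far right among the most abundant miRNAs, and miR-145 and miR-145* lie on opposite sides of 0 among miRNAs that were not called.

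The tables split each count into matches with 0, 1 and 2 mismatches, and the members differed sharply in this. For miR-143, 61.7% and 62.2% of matches were perfect in WT, and 57.1% and 53.01% in TghuTNF. Both TghuTNF libraries were below both WT libraries, as for 26.6% of the 267 miRNAs with at least 100 matches in every library. The share with 1 mismatch was 35.8% and 35.5% in WT and 40.4% and 40.8% in TghuTNF. How many other miRNAs differ in this way in the 1-mismatch share was not counted. The share with 2 mismatches was 2.29% to 2.49% in 3 libraries and 6.15% in TghuTNF replicate 2.

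The log2 odds of a perfect match of miR-143 averaged 0.70 ± 0.020 for WT and 0.29 ± 0.17 for TghuTNF (SD, n = 2). They differed by -0.41 ± 0.18 (SE; 95% interval -0.91 to 0.089; limma adjusted p = 0.84 over 267 miRNAs). With limma 0% of the 267 were called and 3.37% had an unadjusted p under 0.05, so no member stood out by this test. The odds were lower in TghuTNF for 205 of the 267 miRNAs, with a median difference of -0.19. Over whole libraries the perfect share was 69.6% and 70.5% in WT, 70.5% in TghuTNF replicate 1 and 66.0% in TghuTNF replicate 2. Leaving the 2-mismatch class out, chosen after seeing the data, gave -0.36 for miR-143 (limma adjusted p = 0.73). The odds of 0 or 1 mismatches against 2 differed by -0.76 (limma adjusted p = 0.79), with the larger 2-mismatch share in TghuTNF replicate 2.

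Counted by perfect matches alone, miR-143 had 99250 and 96462 per 1000000 perfect matches in WT and 79771 and 84293 in TghuTNF. On this count the genotypes no longer overlapped, as for the 31.8% of 380 tested miRNAs in which both TghuTNF libraries were lower. The log2 fold change was -0.27 ± 0.13 (SE; edgeR adjusted p = 0.21), against 13.2% of miRNAs called on perfect matches. In matches with 1 mismatch alone it was 0.059 ± 0.14. The log2 fold change of miR-143 was therefore negative in the perfect class and slightly positive in the 1-mismatch class, and neither was called.

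For miR-145, 68.3% and 69.6% of matches were perfect in WT, 70.5% in TghuTNF replicate 1 and 52.2% in TghuTNF replicate 2. The latter library had 28.3% with 2 mismatches, against 14.7% to 16.2% in the others. By perfect matches alone miR-145 had 80.5 and 79.3 per 1000000 perfect matches in WT, 83.3 in TghuTNF replicate 1 and 147 in TghuTNF replicate 2. The higher level in TghuTNF replicate 2 was thus also present among perfect matches, where it was smaller. Both TghuTNF libraries were then above both WT libraries, as for 29.2% of tested miRNAs. The log2 fold change was 0.52 ± 0.29 on perfect matches (SE; edgeR adjusted p = 0.27).

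Almost no match of miR-145* was perfect. There were 19 and 49 perfect reads in WT and 55 and 43 in TghuTNF, among 6572, 11129, 10154 and 6854 matches, which is 0.29%, 0.44%, 0.54% and 0.63%. Matches with 2 mismatches made up 75.7% to 78.6% in every library and those with 1 mismatch 20.9% to 24.03%. Of the 267 miRNAs, 15 had under 1% perfect matches over all libraries, against a median of 68.9%, and miR-145* was among them at 0.48%.

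How reads that fit several miRNAs were assigned is not known here. The class counts of the members were therefore compared with those of the other 589 miRNAs. For 0 of them did any class count or total lie within 5% of a class count or total of a member in all 4 libraries. This comparison finds near-equal counts only, and would miss reads shared in part with another miRNA. Which RNA the mismatched reads of miR-145* came from was not tested, and its level in CPM is uncertain for that reason. By perfect matches alone miR-145* had 1.64 and 2.62 per 1000000 perfect matches in WT and 2.85 and 2.84 in TghuTNF, the opposite order of genotypes from that of all matches. This log2 fold change was 0.38 ± 0.36 (SE; edgeR adjusted p = 0.53).

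The log2 odds of a perfect match of miR-145* were -8.39 and -7.81 in WT and -7.51 and -7.29 in TghuTNF. Both TghuTNF libraries were above both WT libraries, as for 7.12% of the 267 miRNAs, but the difference of 0.70 ± 0.29 was not called (SE; limma adjusted p = 0.84). For miR-145 the genotypes overlapped in these odds, with a difference of -0.46 ± 0.44 (SE; limma adjusted p = 0.85).

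**Figure D3:**
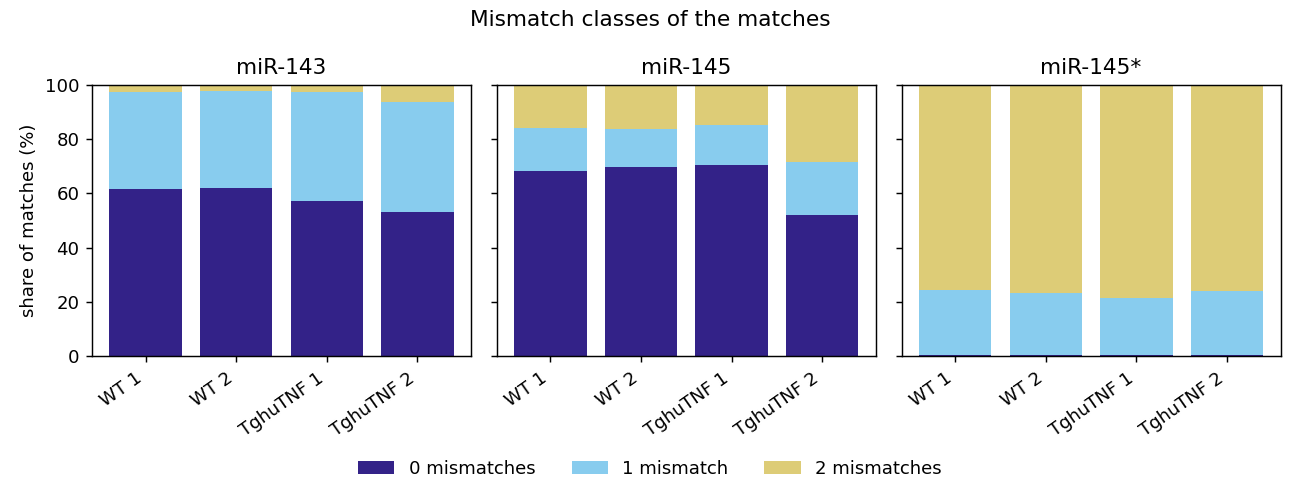
Share of matches in percent (y axis) with 0, 1 and 2 mismatches (dark, light and yellow parts of each bar) for the 3 members in each library (x axis). miR-143 and miR-145 are mostly perfect matches with a larger 2-mismatch part in TghuTNF replicate 2, while perfect matches of miR-145* are at 0.29% to 0.63% and 2 mismatches at 75.7% to 78.6%.

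Since the 2 hairpins share a transcript, the ratio of miR-143 to miR-145 removes differences in its abundance. miR-143 had 1364 and 1361 matches per match of miR-145 in WT, 1183 in TghuTNF replicate 1 and 563 in TghuTNF replicate 2. The WT libraries were nearly identical, and both TghuTNF libraries were lower, the second by far the more. On the log2 scale (pseudocount 0.5) the ratio averaged 10.41 ± 0.0019 for WT and 9.67 ± 0.76 for TghuTNF (SD, n = 2). The difference of -0.74 ± 0.39 was not called (SE; 95% interval -1.76 to 0.28; limma adjusted p = 0.61 over 71 pairs of neighbouring hairpins). An exact two-sided permutation test gave p = 0.333, the smallest that 2 against 2 libraries allow. Every ratio without overlap between genotypes gets this value (39.4% of the 71), so the test adds nothing to that. Against miR-145*, the arm of mir-145 with more matches, the ratio overlapped between genotypes. Its difference had the other sign, 0.17 ± 0.23 (SE, 95% interval -0.43 to 0.76, limma adjusted p = 0.82).

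Perfect matches gave the same order, with ratios of 1233 and 1216 in WT, 958 in TghuTNF replicate 1 and 572 in TghuTNF replicate 2. The difference in log2 ratio was then -0.73 ± 0.38 (SE; limma adjusted p = 0.53 over 66 pairs, of which 6.06% were called). Without TghuTNF replicate 2 the difference over all matches was -0.20, and without TghuTNF replicate 1 it was -1.27 (limma adjusted p = 0.61 and 0.084).

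The imbalance of the 2 hairpins was large in every library. The 71 rows are pairs of adjacent hairpins on one strand with starts at most 10 kb apart, each hairpin taken by its more abundant arm, plus miR-143 to miR-145 itself, since miR-145* had more matches than miR-145. With a mean log2 ratio of 10.04, miR-143 to miR-145 was the most unequal, followed by miR-30d to miR-30b at 8.88 and miR-143 to miR-145* at 8.17, against a median size of 2.67. Counts of different miRNAs were not calibrated against each other, so these ratios are of reads and not of molecules. Between genotypes, 2.82% of the 71 rows were called, and 39.4% did not overlap, as was the case for miR-143 to miR-145. The called rows were miR-494 to miR-329 (-2.43) and miR-495 to miR-543 (2.07), all of the imprinted Dlk1-Dio3 cluster.

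**Figure D4:**
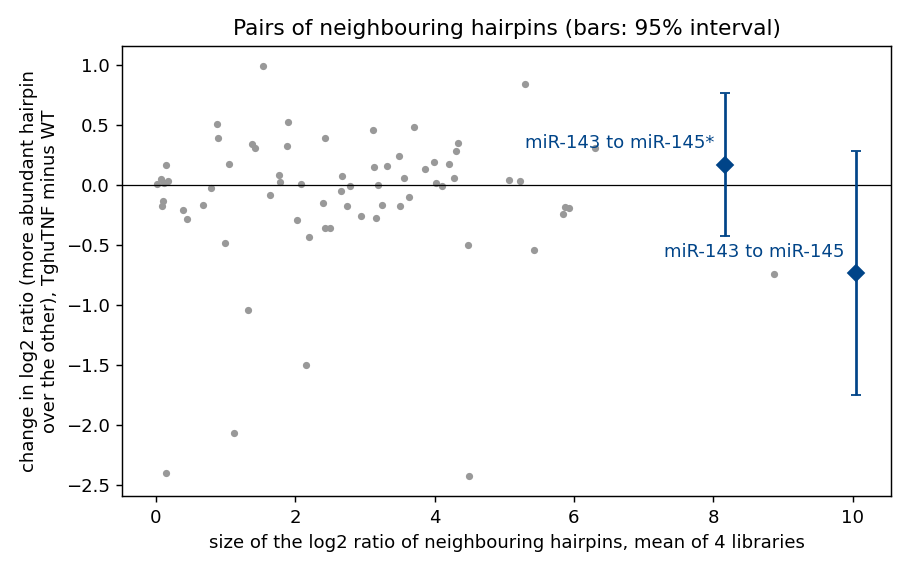
Change in the log2 ratio of 2 neighbouring hairpins between TghuTNF and WT (y axis, more abundant over less abundant) against the size of that log2 ratio (x axis, mean of 4 libraries), for 71 rows. miR-143 to miR-145 lies farthest right at 10.04 with a change of -0.74, and its 95% interval includes 0.

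The balance of the arms of mir-145 depended on which matches were counted. Over all matches miR-145 had 0.21 and 0.19 matches per match of miR-145* in WT, 0.22 in TghuTNF replicate 1 and 0.62 in TghuTNF replicate 2, so the star arm had more matches in every library. Among perfect matches miR-145 had 49.2 and 30.3 per match of miR-145* in WT and 29.2 and 52.0 in TghuTNF, so the star arm was the minor one in every library. Of 83 hairpins whose arms were both measured on both counts, mir-145 was 1 of 3 in which the more abundant arm differed between them.

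Between genotypes the log2 arm ratio over all matches averaged -2.32 ± 0.084 for WT and -1.42 ± 1.04 for TghuTNF (SD, n = 2). The difference of 0.91 ± 0.48 was not called (SE; 95% interval -0.23 to 2.05; limma adjusted p = 0.70). Of 104 hairpins with both arms tested, limma called 0% and 4.81% had an unadjusted p under 0.05, while 37.5% did not overlap between genotypes, mir-145 among them. On perfect matches the difference was 0.025 ± 0.38 (SE; limma adjusted p = 0.96), with WT at 5.25 ± 0.48 and TghuTNF at 5.27 ± 0.59. Without TghuTNF replicate 2 the difference over all matches was 0.17, and without TghuTNF replicate 1 it was 1.64 (limma adjusted p = 0.92 and 0.13). The difference in arm balance seen over all matches was thus near 0 among perfect matches, whose 95% interval ran from -0.81 to 0.86.

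**Figure D5:**
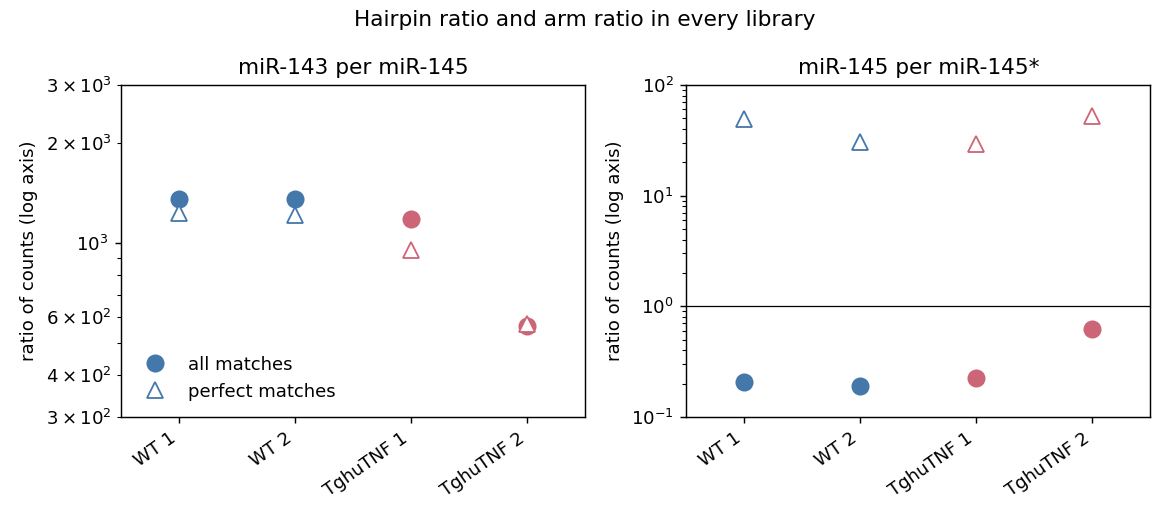
Ratio of counts on a log axis in each library, miR-143 per miR-145 (left) and miR-145 per miR-145* (right), for all matches (filled circles) and perfect matches (open triangles). TghuTNF replicate 2 has the lowest ratio of miR-143 to miR-145 on either count (563 and 572), and the arm ratio lies under 1 for all matches and at 29.2 to 52.0 for perfect matches.

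The pattern of each member over the 4 libraries was compared with that of the other miRNAs with a mean of at least 100 CPM, as the Euclidean distance of centred log2 CPM. Closest to miR-143 were miR-148b (0.041), miR-192 (0.042), miR-29c (0.072), miR-671-5p (0.10) and miR-30e* (0.10), with log2 fold changes of -0.20 to -0.060. Closest to miR-145 were miR-29b (0.41), miR-379 (0.43), miR-140 (0.47), miR-434-5p (0.47) and miR-411 (0.49). No miRNA was as close to miR-145 as these were to miR-143. The distance between miR-143 and miR-145 was 1.05, that between miR-145 and miR-145* was 1.38, and that between miR-143 and miR-145* was 0.34. The 5 closest were picked as the smallest of 134 distances. That the members lie farther apart than these therefore cannot show whether they go together. With 4 libraries such distances only describe the libraries.

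By mean level miR-145 ranked 128 of 442, between miR-30c (101 ± 24.3 CPM in WT and 118 ± 28.7 in TghuTNF) and miR-1944 (86.2 ± 53.7 and 127 ± 120 CPM), and did not differ from either beyond their spread. By all matches miR-145* ranked 92, between miR-30e* (398 ± 15.9 and 346 ± 16.1 CPM) and miR-382 (281 ± 17.3 and 448 ± 79.7 CPM). In WT it lay above miR-382 in both libraries and in TghuTNF below it. By perfect matches alone it ranked 285 to 317 in the 4 libraries, and miR-145 ranked 105 to 126.

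Other miRNAs of the cluster's known settings were counted from lists, to be read against the 13.3% called among all 442 miRNAs (21 higher and 38 lower). Of 20 tested miRNAs reported in smooth muscle phenotype, besides the members, 4 were higher in TghuTNF, 1 was lower and 15 did not pass, with a median log2 fold change of -0.035 against 0.0056 over all miRNAs. Those higher were miR-146a (2.64 ± 0.25), an NF-kB target, miR-222 (1.84 ± 0.19) and miR-221 (2.02 ± 0.28), which favour proliferation of smooth muscle, and miR-31 (1.40 ± 0.23), the last named after its values were seen. The lower one was miR-204 (-3.01 ± 0.38), which restrains osteogenic change. Errors are SE.

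Of 21 miRNAs reported with TGF-beta and myofibroblast activation, 1 was higher (miR-155, 1.40 ± 0.22), 1 was lower (miR-214, -0.93 ± 0.26) and 19 did not pass (median -0.060). Of 14 miRNAs induced or processed with p53, 2 were higher, miR-215 (1.92 ± 0.27) and miR-22 (1.02 ± 0.19), and 12 did not pass (median 0.031). With 2 of 21 and 2 of 14 called, neither share is set apart from that among all miRNAs.

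miR-143 and miR-145 mark smooth muscle and pericytes as well as fibroblasts, so markers of other cells are given beside them. The 6 fibroblast and mesenchymal miRNAs summed to 173105 and 193486 CPM in WT and 194182 and 208723 in TghuTNF, with miR-22 higher, miR-214 lower and 4 not passing. The 5 tested striated muscle miRNAs summed to 2426 and 3008 CPM in WT and 2055 and 1784 in TghuTNF, 0 of them called by edgeR. Most of this was miR-206 (-0.53 ± 0.18) and miR-1 (-0.43 ± 0.19), neither of which passed. The scarce miR-133a (-0.98), miR-133b (-0.97) and miR-499, which went the other way (1.20), did not pass either.

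The 2 endothelial miRNAs summed to 127 and 108 CPM in WT and 68.8 and 66.7 in TghuTNF, and miR-126-3p was lower (-0.79 ± 0.22). The 3 tested blood cell miRNAs summed to 15.8 and 6.06 CPM in WT and 28.3 and 21.2 in TghuTNF, and miR-223 was higher (2.72 ± 0.47). miR-223 was scarce, at 0.61 and 0.29 CPM in WT and 3.26 and 2.40 in TghuTNF. The other 2 did not pass, among them miR-142-3p (1.08 ± 0.38), which made up most of each sum. The 4 tested epithelial miRNAs (of 7 listed) summed to 67.6 and 70.6 CPM in WT and 36.5 and 30.3 in TghuTNF. Of these, miR-203, which made up most of the WT sum, was lower (-1.43 ± 0.24). The other 3 did not pass and had positive values (miR-200b 0.44, miR-200c 0.30 and miR-141 0.46), which gives a median of 0.37 although the sum was smaller in TghuTNF. The 5 tested neural miRNAs (of 6 listed) summed to 324 and 279 CPM in WT and 459 and 440 in TghuTNF. Among them miR-138 was higher (1.12 ± 0.29). Most of each sum was miR-129-5p (0.67 ± 0.20), which did not pass. Nor did miR-128 (0.36), miR-9 (-0.28) and miR-9* (-0.13). The 4 chondrocyte miRNAs summed to 12314 and 13108 CPM in WT and 18525 and 26040 in TghuTNF, where both arms of mir-140 were higher and both arms of mir-455 lower. The part of these cells in the levels of the members was not tested.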

How the data were processed

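The authors matched small RNA reads to mature miRNAs with mimap version 3d (707 mouse miRNAs, read length 37, at most 2 mismatches, hash length 9), per the file headers. What they deposited are unnormalised counts of matches per miRNA, each split into 3 mismatch classes. The sources used here do not give the miRBase release, the trimming of adaptors or how reads that fit several miRNAs were assigned. Reads carry no molecular identifiers, and the exact binomial intervals cover counting error only. The edgeR and limma intervals also take in the spread between libraries.

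Counts were filtered with filterByExpr, scaled with TMM and tested with edgeR 4.0.16 in R 4.3.3 (quasi-likelihood, genotype only, two-sided, Benjamini-Hochberg over all tested miRNAs). Hairpin ratios, arm ratios (pseudocount 0.5) and log2 odds of a perfect match were compared with limma 3.58.1, adjusted over all pairs, hairpins or miRNAs. Hairpins were placed by unique symbol in GENCODE (422 of 590 names), with older names from RefSeq gene synonyms (GRCm38.p6). Alternatives included DESeq2 1.42.0. The tests were also run on simulated data with the same spread for all miRNAs, a simpler setting than these data.

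The members, lists and tests were chosen with earlier results of these data known. Named miRNAs were the members, the 5 nearest in pattern to miR-143 and to miR-145 (distance of log2(CPM + 0.5)), neighbours in rank, called ratio pairs, and of each list up to 4 called members by smallest p or else the most abundant.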

Additional observations from a re-analysis of the deposited data

How the results depend on the processing

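Each member's comparison was repeated under 13 alternatives. miR-143 was not called in any of them (log2 fold change -0.27 to -0.059). miR-145 was called without the filter on low counts (0.74, edgeR adjusted p = 0.020), with a replicate block (0.63, 0.049) and without TghuTNF replicate 1 (1.16, 2.9e-05), and not in the other 10 (range over left-out libraries 0.0049 to 1.16). miR-145* turned to 0.38 with perfect matches only. Leaving out each library gave -0.49 to -0.16 for it. The odds of a perfect match of miR-145* turned to -0.092 for 0 and 1 mismatches against 2, and those of miR-145 to 0.10 without TghuTNF replicate 2 (-1.02 without TghuTNF replicate 1). The hairpin ratio of miR-143 to miR-145 and the arm ratio were not called under any of the 9 alternatives run for each. Both kept their sign, but without a library the first ranged from -1.27 to -0.20 and the second from 0.17 to 1.64. With perfect matches the arm ratio was 0.025. The cause of these changes was not tested.

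Of all miRNAs, 21 were higher and 38 lower. Higher calls numbered 39 without the filter, 8 with a mean of at least 100 CPM (6 lower) and 34 with a replicate block, and leaving out each library gave 17 to 61 higher and 29 to 92 lower. With a mean of at least 100 CPM 57.1% of calls were higher, against 35.6%. Of listed miRNAs, 11 were higher and 6 lower; 0 were lower with a mean of at least 100 CPM, and 3 to 11 were lower with a library left out. Upper quartile factors shifted the median log2 fold change of all miRNAs to -0.10. Relative to it the members kept their direction.

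The replicate numbers are only numbers in the labels: deviations of WT replicate 1 and TghuTNF replicate 1 correlated at r = -0.088 across 442 miRNAs. The replicate block changed no other member's call. Depth did not limit miR-143 or miR-145, but the 19 to 55 perfect reads of miR-145* leave wide intervals.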
